A study of Rattus norvegicus with 6 samples.

Results

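Protein arginine methyltransferases (PRMTs) were examined in cultured newborn rat ovaries with and without connective tissue growth factor (CTGF), a secreted protein of the CCN family. The array annotation gave 8 of the 27342 probe sets exactly 1 symbol of the 7 genes Prmt1, Prmt2, Prmt3, Prmt5, Prmt6, Prmt7 and Carm1. Prmt1 had 2 probe sets and each other gene had 1. The family was chosen by gene name around Prmt2, and Prmt2 had itself been selected on its CTGF to control ratio in these same arrays. The differences of the PRMTs between CTGF and control are therefore given as a description, and p-values of the fit across the array are used as background only. The 3 control and 3 CTGF samples were ovaries of 0-day-old female Sprague-Dawley pups, all kept 24 h in organ culture, either with no treatment or with human CTGF at 500 ng/ml. For each sample RNA came from 2 to 3 pooled ovaries, taken from different pups of a single litter and cultured in the same well. Each of the 3 organ culture date batches named in the labels gave 1 control and 1 CTGF sample. The whole ovary was used, so fewer cells of a type and less RNA per cell cannot be told apart.

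PRMTs transfer methyl groups from S-adenosylmethionine to arginine residues of histones, RNA-binding proteins and other proteins. Members differ in the product they leave, which is monomethylated, asymmetrically dimethylated or symmetrically dimethylated arginine. In germ cells, symmetric dimethylation by Prmt5 marks PIWI proteins and spliceosomal Sm proteins, which proteins with Tudor domains then bind. PRMT2, the family member with an SH3 domain, is known as a coactivator of nuclear receptors such as the estrogen receptor.

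The start of Prmt2 is shown because the family was chosen around Prmt2, which had been selected on its ratio in these same arrays. The stretch covers the 250 bases before its RefSeq start, at chr20:12394065-12394314 on the + strand of build GRCr8, and capitals mark the 10-base string that occurs most often in it.
Prmt2: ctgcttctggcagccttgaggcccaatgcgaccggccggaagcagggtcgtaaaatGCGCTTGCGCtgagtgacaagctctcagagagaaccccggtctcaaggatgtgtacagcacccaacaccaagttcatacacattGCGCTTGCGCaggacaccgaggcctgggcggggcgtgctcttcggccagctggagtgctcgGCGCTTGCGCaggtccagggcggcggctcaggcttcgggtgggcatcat
The string GCGCTTGCGC occurs 3 times, beginning 194, 110 and 49 bases before the start. On either strand it was present in 0.43% of 33469 RefSeq promoter windows of the same length, and no other window held 3 copies. It was picked as the most repeated string of this window, so its rarity elsewhere follows in part from that choice. It was absent from the windows of Prmt1, Prmt5, Prmt6, Prmt7 and Carm1, and Prmt3 is not in the table. The GC box letters GGGCGG, which overlap none of the copies, were found 2 times at Prmt2 on the strands together and were present in 30.5% of all windows. The letters CAGACA, found in SMAD sites, and GGAATG, found in TEAD sites, were not in the Prmt2 window and were present in 17.3% and 12.1% of all windows. The arrays measured transcripts only, and a match to letters is not a measured binding site.

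The deposited values are log2 signals, in which a difference of 1 is a doubling. Averaged over its control and its CTGF sample, each batch had the same level of every probe set, to within 0.005. The spread between samples of a group therefore reflects the 3 differences within batches alone, holds no spread between culture dates, and is the same measure in both groups. Array medians lay between 5.82 and 5.84. Background was set at the 95th percentile of 39 probe sets for genes of other organs, such as the lens, pancreas and pituitary, which was a signal of 46.2 on the un-logged scale. All 8 PRMT probe sets had mean signals above it, as did 54.0% of all probe sets. The tissue label was checked with marker genes. All 6 measured germ cell markers, Ddx4, Dazl, Dppa3, Kit, Mael and Sycp3, and all 6 measured gonadal somatic markers, among them Wt1, Gata4 and Amhr2, were above background.

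Prmt2 was lower with CTGF in every batch. Its log2 signal was 7.59, 7.54 and 7.57 in the control samples of batches 1, 2 and 3 and 7.28, 7.33 and 7.30 in the CTGF samples. All 3 control samples were above all 3 CTGF samples, and the gap between the groups was wider than the range within either. The lack of overlap adds nothing to the shared sign, because batch means are equal. All 2977 probe sets that were lower in every batch had groups that did not overlap. Un-logged, control samples averaged 189.6 ± 3.30 (SD, n = 3) and CTGF samples 158.0 ± 2.76 (SD, n = 3). The log2 difference of CTGF minus control was -0.31, -0.21 and -0.27 in the 3 batches, with a mean of -0.26 (standard error 0.06 from the fit across all probe sets, 95% interval -0.42 to -0.11). Prmt2 lay at the edge of the study's ratio criterion. Control over CTGF was 1.20025 for a limit of 1.2, an excess finer than the rounding of the log2 values can resolve. In the other direction this is a CTGF over control of 0.833. The ratio printed for Prmt2 in the paper's list is slightly weaker and falls short of the limit. The difference of un-logged signals was -31.6 for a required size of 10. The member next outside the criterion was Prmt1, with control over CTGF at 1.04.

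**Figure D1:**
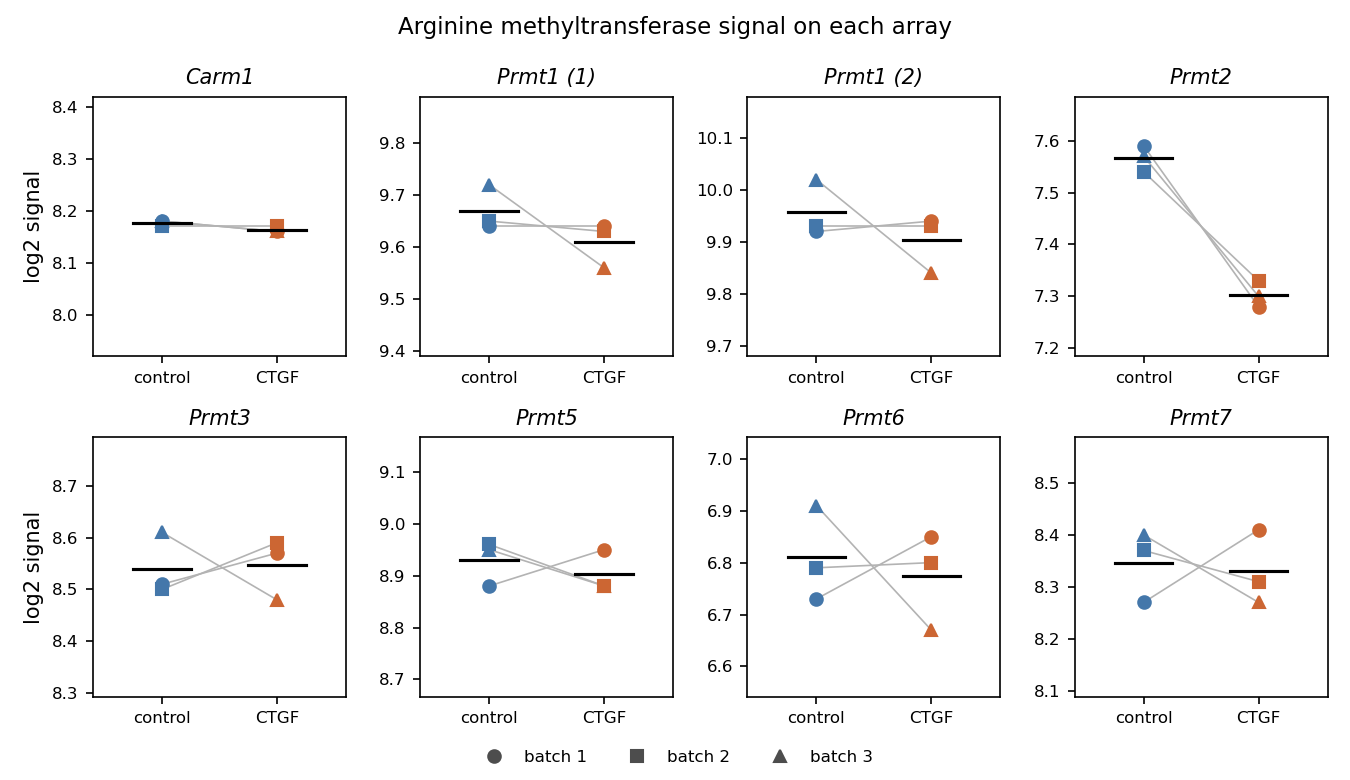
Log2 signal (vertical axis, each panel spanning the same 0.5 log2 units) of the 8 PRMT probe sets in control (blue) and CTGF (orange) ovaries, with symbols for the 3 batches, grey lines joining samples of a batch and black bars for group means. The groups do not overlap for Prmt2, at 7.54 to 7.59 in control and 7.28 to 7.33 with CTGF, while they overlap or touch for the other probe sets.

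In the fit across all 27342 probe sets with limma, culture batch being a block, 0 (0%) passed an adjusted p of 0.05, the PRMTs included, and the smallest adjusted p was 0.994. With no adjustment, 915 probe sets had a p under 0.05 in limma and 1147 in the methods' 2-way test, with 0 after adjustment in either. The limma count is 3.35% of all probe sets, no more than a cut of 0.05 would give with no differences. Prmt2 was the only PRMT probe set with an unadjusted p under 0.05 and a lower value with CTGF, beside 1.89% of all probe sets (518, with 397 called higher). With each array centred on its median, 383 were called lower and 560 higher. Prmt2 was also the only PRMT probe set whose CTGF samples were all below its control samples, beside 10.9% of all probe sets. Since Prmt2 was chosen on this difference, nothing is read from these counts.

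Carm1, which methylates histone H3 and is a coactivator of nuclear receptors, had the most even signal of the family. Its log2 signal was 8.18, 8.17 and 8.18 in control samples and 8.16, 8.17 and 8.16 with CTGF. The difference was -0.02, 0 and -0.02 in the 3 batches, with a 95% interval of the mean of -0.16 to 0.14 that also draws on the spread seen across the array. The SD of these 3 differences was 0.012, and 99.0% of all probe sets had a larger SD.

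Prmt1, the main source of asymmetric dimethylarginine in most cells, had similar patterns at both of its probe sets. The log2 signal of the first was 9.64, 9.65 and 9.72 in control samples and 9.64, 9.63 and 9.56 with CTGF. The second read 9.92, 9.93 and 10.02 in control samples and 9.94, 9.93 and 9.84 with CTGF. In both, the samples of batches 1 and 2 were nearly level and those of batch 3 were apart, by -0.16 in the first probe set and -0.18 in the second. The mean difference was -0.06 (95% interval -0.23 to 0.11) and -0.05 (95% interval -0.23 to 0.12). Without batch 3 these means were -0.01 and 0.01. RefSeq lists 3 Prmt1 pseudogenes and a gene named Prmt1l1, so the transcripts that the second probe set reads are uncertain. The pair is not counted as independent measures.

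Prmt3, a cytosolic enzyme that methylates the ribosomal protein Rps2, had log2 signals of 8.51, 8.50 and 8.61 in control samples and 8.57, 8.59 and 8.48 with CTGF. Its sign turned between batches, with differences of 0.06, 0.09 and -0.13. Its mean of 0.01 (95% interval -0.17 to 0.18) was the only one above 0 in the family, and it was -0.02 without batch 1 and -0.035 without batch 2. Prmt6, a nuclear enzyme that methylates histone H3, had log2 signals of 6.73, 6.79 and 6.91 in control samples and 6.85, 6.80 and 6.67 with CTGF. The control sample of batch 3 was its highest and the CTGF sample of the same batch its lowest. Its difference was 0.12, 0.01 and -0.24, the widest range of the family, with a mean of -0.04 (95% interval -0.25 to 0.17) that became 0.065 without batch 3.

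Prmt5, the main enzyme of symmetric dimethylation, had log2 signals of 8.88, 8.96 and 8.95 in control samples and 8.95, 8.88 and 8.88 with CTGF. The groups shared the values 8.88 and 8.95, and the difference was 0.07, -0.08 and -0.07, with a mean of -0.03 (95% interval -0.19 to 0.14). This mean was -0.075 without batch 1, 0 without batch 2 and -0.005 without batch 3. Prmt7, which leaves monomethylarginine, had log2 signals of 8.27, 8.37 and 8.40 in control samples and 8.41, 8.31 and 8.27 with CTGF. Its difference was 0.14, -0.06 and -0.13, so that batch 1 stood on the other side of 0 from batches 2 and 3. Its mean of -0.02 (95% interval -0.20 to 0.17) became 0.005 without batch 2 and 0.04 without batch 3.

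The 7 probe sets other than Prmt2 thus had mean log2 differences between -0.06 and 0.01, and their 95% intervals lay within -0.25 and 0.18. Their differences ranged from -0.02 to 0.14 in batch 1, from -0.08 to 0.09 in batch 2 and from -0.24 to -0.02 in batch 3. In batch 3 all 8 PRMT probe sets, 2 of them of Prmt1, were lower with CTGF. The lowest difference was that of batch 3 for 5 of the 8, beside 32.3% of all probe sets. Counted by gene, it was 4 of 7. Median differences of all probe sets were 0, -0.01 and 0 in batches 1, 2 and 3. Of the 8 probe sets 7 had a mean below control, or 6 of the 7 genes, beside 13963 of all 27342 probe sets. With array medians centred 6 of the 8 were below control. Without batch 3 it was 4 of the 8, and the second Prmt1 probe set came to 0.01. Prmt2 was -0.24 without batch 1, -0.29 without batch 2 and -0.26 without batch 3.

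**Figure D2:**
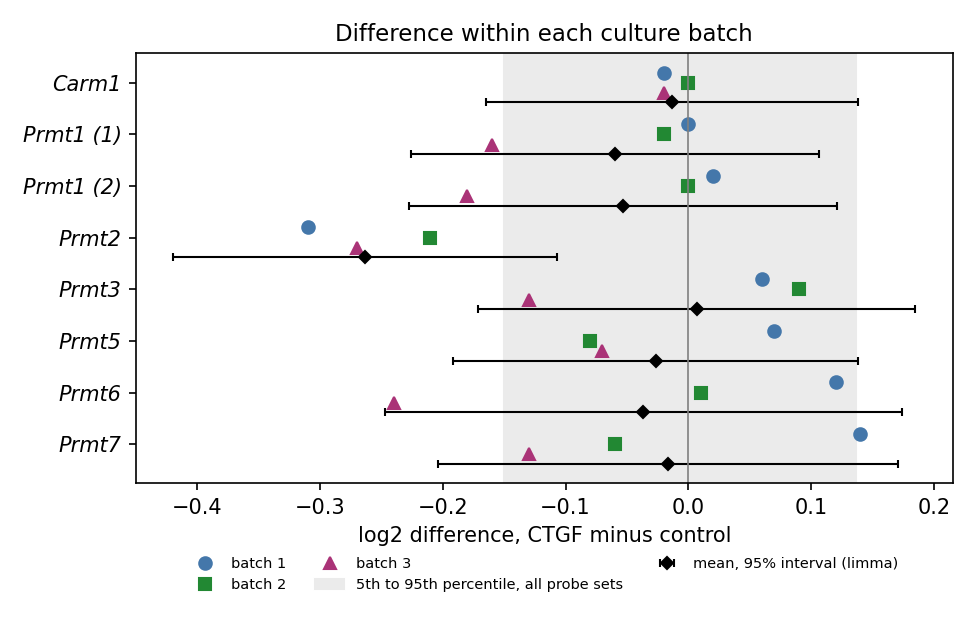
Log2 difference of CTGF minus control (horizontal axis) for each PRMT probe set (vertical axis) in batches 1, 2 and 3, with the mean and its 95% interval from limma (black). The grey band, -0.15 to 0.14, runs from the 5th to the 95th percentile of the mean differences of all probe sets. It describes means over the 3 batches and is no range for the points of single batches. Prmt2 lies between -0.31 and -0.21 in every batch, and the batch 3 points of Prmt1, Prmt3, Prmt6 and Prmt7 lie between -0.24 and -0.13.

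Enzymes work with partner proteins, and 5 of 7 listed partners of PRMT1 and PRMT5 had a probe set. Wdr77, the subunit that binds substrates for PRMT5, had a log2 difference of 0.13, 0.01 and -0.22 in the 3 batches. Riok1, an adaptor of PRMT5, had 0.10, 0.14 and -0.18, and Clns1a, the adaptor for Sm proteins, had 0.03, -0.05 and -0.18. Btg1, which binds PRMT1, had 0.05, 0.03 and -0.31. For each of these 4 genes the lowest difference was that of batch 3, as for 32.3% of all probe sets. The remaining partner, Prdm1, was below background and lowest in batch 1, with differences of -0.31, 0.17 and -0.16. The median of the 5 was 0.05, 0.03 and -0.18 in the 3 batches, and the median of the means was -0.07, beside -0.003 for all probe sets. Of 5 measured partners of PRMT2, E2f1, a cell cycle transcription factor, had a mean log2 difference of 0.12 (standard error 0.11) and Rb1, its inhibitor, 0.09 (standard error 0.07). The signal of E2f1 was near background, at 1.08 times its level. The NF-κB inhibitor Nfkbia had 0.06 (standard error 0.06) and the estrogen receptor Esr1 -0.03 (standard error 0.08). None of these partners passed the test.

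S-adenosylmethionine is made by methionine adenosyltransferases, and its product after transfer is cleared by Ahcy. Of 13 measured genes of this supply, 5 were above and 8 below control, and 0 passed the test. Mat2a, the adenosyltransferase of most tissues, averaged an un-logged signal of 2376 ± 118 (SD, n = 3) in control and 2535 ± 124 (SD, n = 3) in CTGF samples, with log2 differences of 0.12, 0.22 and -0.06. Mtap, which salvages methylthioadenosine, had a mean log2 difference of 0.11 (standard error 0.08), Ahcy -0.03 (standard error 0.06) and Amd1, which draws S-adenosylmethionine into polyamine synthesis, -0.03 (standard error 0.07). The median of the list was -0.01.

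Free dimethylarginines, which arise when methylated proteins are degraded, are broken down by the Ddah enzymes and by Agxt2. The Ddah genes differed in sign, each in all 3 batches. Ddah1 averaged an un-logged signal of 482.2 ± 11.8 (SD, n = 3) in control and 528.9 ± 12.9 (SD, n = 3) in CTGF samples, with log2 differences of 0.06, 0.20 and 0.14. Ddah2 averaged 442.8 ± 16.1 (SD, n = 3) in control and 390.9 ± 13.9 (SD, n = 3) in CTGF samples, with log2 differences of -0.12, -0.12 and -0.30. For both genes the groups did not overlap, which follows from the shared sign in all 3 batches and the equal batch means. All CTGF samples were higher for Ddah1, as for 9.41% of all probe sets, and lower for Ddah2, as for 10.9%. Neither gene passed after adjustment (adjusted p = 0.994, limma). Agxt2 is on the study's list chosen from these samples, and its mean log2 difference of 0.63 (standard error 0.09) was at signals below background. Jmjd6, a dioxygenase for which arginine demethylation has been described, had -0.03 (standard error 0.07), and Padi4, which converts arginine to citrulline, had -0.29, 0.05 and 0.25 in the 3 batches. Of the 8 measured genes of this list 5 were above and 3 below control.

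Among 10 measured Tudor domain genes, whose proteins read methylarginine, 7 were above and 3 below control, with a median of 0.04. Tdrd5, a germ cell gene of the PIWI pathway, had log2 signals of 9.50, 9.49 and 9.56 in control samples and 9.71, 9.72 and 9.66 with CTGF. All its CTGF samples were above all its control samples, as for 9.41% of all probe sets, with a mean difference of 0.18 (standard error 0.07, adjusted p = 0.994 with limma). Tdrd1, another germ cell member, had 0.16, -0.09 and 0.23, while Tdrd7 had a mean of -0.02 (standard error 0.07) and Akap1, a mitochondrial anchor protein, -0.003 (standard error 0.06). Of 22 measured substrates 13 were above and 7 below control and 2 were level, with a median of 0.01 and 0 passing the test. Piwil4, a PIWI protein, was near background, at 1.22 times its level. Its log2 signals were 5.88, 5.94 and 5.93 in control samples and 5.74, 5.69 and 5.70 with CTGF. Its CTGF samples were all below its control samples, as for 10.9% of all probe sets, and its mean difference was -0.21 (standard error 0.07, adjusted p = 0.994 with limma). Its relative Piwil2 had differences of 0.13, -0.17 and 0.30, and Snrpd1, an Sm protein methylated by PRMT5, had -0.01, 0.24 and -0.71. Foxo1, a transcription factor methylated by PRMT1, had a mean difference of 0.12 (standard error 0.08).

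**Figure D3:**
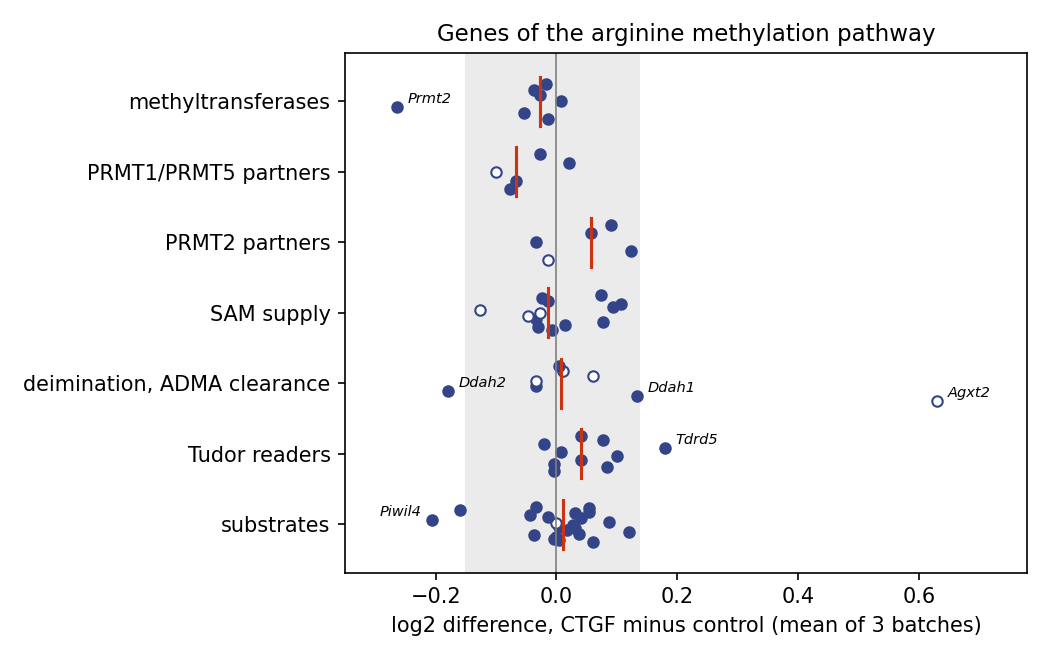
Mean log2 difference of CTGF minus control (horizontal axis) for the measured genes of each list (vertical axis; SAM is S-adenosylmethionine, ADMA asymmetric dimethylarginine), filled where the signal is above background and open where it is not, with the list's median (red) and the 5th to 95th percentile of all probe sets (grey band, -0.15 to 0.14). Prmt2, which was selected on its ratio in these arrays, lies at -0.26, apart from the other methyltransferases. Ddah1 and Ddah2 lie at 0.13 and -0.18.

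The named probe sets closest to the 3 batch differences of Prmt2, by Euclidean distance over the 3 batches, were Or8c18 (distance 0.028), Or14j5 (0.05), Vom1r30 (0.054), Efhc2 (0.058) and Or1o11b (0.065). Or8c18 had differences of -0.31, -0.19 and -0.29, and Efhc2 had -0.28, -0.17 and -0.24. Or14j5 and Vom1r30 had signals below background, and Or8c18 and Or1o11b lay near it, at 1.16 and 1.36 times its level. The probe set of Or8c18 is on the study's list chosen from these samples, under another symbol. Since values of 3 batches describe each pattern, the likeness is a description.

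Markers of cells differed between the groups in some cases, and their part in the PRMT values was not tested. Of 22 measured markers of other cells, 8 were above background, 8 were above and 14 below control. Their summed signal was 2895 to 3107 in control samples and 2762 to 2950.5 with CTGF. Most of this lower sum came from Cpa3 alone, which averaged an un-logged signal of 341.9 in control and 193.6 in CTGF samples. The listed mast cell genes did not move together. Cpa3 had log2 differences of -0.14, -0.80 and -1.52 in the 3 batches, while Prmt2 was at -0.31, -0.21 and -0.27. Kit, also listed for germ cells, had 0.12, 0.15 and 0.31, and Tpsb2, below background, had 0.15, -0.37 and -0.07. All 6 germ cell markers had means above control, with summed signals of 3840 to 4465 in control samples and 4023 to 4666 with CTGF, and their median difference was 0.145, -0.205 and 0.27 in the 3 batches. Gonadal somatic markers had 3 above and 3 below control, with summed signals of 3002 to 3275 and 2933 to 3212.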

How the data were processed

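RNA of 6 ovary pools was hybridized to Affymetrix Rat Gene 1.0 ST arrays. The deposited log2 values of 27342 probe sets were made by the authors with RMA, GC-content adjusted, in Partek, and the sources used here do not state that batch differences were removed. Every value column was matched to a sample. Probe sets were named from the platform annotation, of which 15067 of 15097 with 1 symbol matched a RefSeq gene by Entrez number. A gene with several probe sets is counted by that with the highest mean signal. Differences were fitted with limma 3.58.1 in R 4.3.3 (lmFit, eBayes, culture batch as a block as in the methods), no filter, and p-values adjusted over all probe sets by Benjamini-Hochberg. The fit has 2 residual degrees of freedom. The labels pair the samples by organ culture date, but deviations of paired samples from their group means correlated at -0.999 in each batch, which follows from the equal batch means. The procedure was tested on simulated data.

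The PRMT family and all gene lists were chosen with earlier results of these data known. From each list the 2 highest and 2 lowest differences above background are named, and Agxt2 was added after its value was seen. Prmt8, Prmt9, Ndufaf7 and Mettl23, also looked for, had no named probe set. Protein sequences were not used here. Promoter windows are from RefSeq, and coordinates of probe sets are not given. Alternatives were a fit with no block, each batch left out, quantile normalization, centred medians, a filter at background, trend and robust options, un-logged ratios and the methods' 2-way test. The number of arrays limits the precision.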

Additional observations from a re-analysis of the deposited data

How the results depend on the processing

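At an adjusted p under 0.05, 0 probe sets passed with limma and with each alternative test or scaling that was run. Without the replicate block the count at an unadjusted p under 0.05 was 4415 in place of 915, and this fit counts more residual degrees of freedom than the values hold. It gave Prmt2 an adjusted p of 0.0609, where the alternatives otherwise gave 0.781 to 1. No call at an adjusted p of 0.05 depended on the block. With the filter at background the count was 415, as fewer probe sets were tested. Without 1 batch the count was 645 to 1244. The number of PRMT probe sets below control was 4 to 8 without 1 batch. The log2 difference of Prmt2 was -0.29 to -0.24 under its 11 alternatives. Of 88 values of the PRMT probe sets under alternatives, 82 kept their direction or came to 0, and 6 turned, all with a batch left out. These were Prmt3, which ran from -0.035 to 0.075 without 1 batch and was at -0.02 and -0.035 without batches 1 and 2, Prmt7, from -0.095 to 0.04 and at 0.005 and 0.04 without batches 2 and 3, and, both without batch 3, Prmt6, from -0.115 to 0.065, and the second Prmt1 probe set, from -0.09 to 0.01. The 95% intervals of these members include 0.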
